A study of Mus musculus with 24 samples.

Results

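The cytosolic ribosomal protein genes were taken as every row of the hypothalamic count table whose symbol is Rps, Rpl or Rplp followed by a ribosomal protein number, plus Rpsa, with rows named as pseudogenes (-ps) left out. This rule found 89 genes among the 55471 rows, 36 of the small subunit and 53 of the large subunit. Of these, 83 are annotated as protein coding and 6 as processed pseudogenes that carry a regular symbol (Rpl32l, Rpl6l, Rps12l1, Rps3a2, Rps3a3 and, transcribed, Rps4l). The rule used symbols and no measured value. An expression filter kept 85 of the 89 genes (35 small, 50 large) among 18992 genes tested. Rpl10l and Rps12l1 had 0 counts in every library, and Rpl32l and Rpl39l were too low to be tested.

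A cytosolic ribosome holds 1 copy of almost every one of these proteins, the small subunit reading the mRNA and the large subunit joining the amino acids. The mRNAs of these proteins belong to the class that starts with a C followed by a run of pyrimidines, the 5′ terminal oligopyrimidine (TOP) tract, through which the kinase complex mTORC1 and the RNA-binding protein Larp1 set how much of the mRNA is translated. In the brain, as elsewhere, ribosomal protein mRNAs are abundant and accumulate in proportion to one another, and the amount of mRNA alone does not show how strongly it is translated.

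Hypothalami came from male, 18-week-old C57BL6/J mice on ad libitum chow, with 1 library per mouse. ExpOF mice received a commercial liquid diet with added sucrose through a gastric catheter up to d14, and Control mice received sterile water at the same flow rates. All mice of the d14+3 groups were then infused with water, so ExpOF d14+3 mice were sampled 3 days into the voluntary hypophagia that follows overfeeding. The groups compared were ExpOF d14 (n = 6), Control d14 (n = 5 of 6), ExpOF d14+3 (n = 6) and Control d14+3 (n = 6). All carried the catheter and the pump tether, and all were wild type. Mice of every group were killed in a July and in a September cohort.

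Near the annotated start of the mRNA, many of these genes share a feature that the naming rule did not use. RefSeq promoter windows of the GRCm38.p6 build were found for 76 start sites of 64 of the 89 genes, and they were searched on the sense strand for a C followed by at least 5 further C or T bases that begins within 25 bases of the annotated start. Such a tract was present in 47 of the 64 genes (73.4%), against 10896 of 27025 genes with a promoter entry (40.3%). By start site the shares were 51 of 76 (67.1%) and 12053 of 32851 (36.7%). A match is a description of the letters and not a mapped start of transcription. The following 30-base windows are shown because their genes carry the results below. First come 6 genes with large differences between ExpOF and Control mice on the later sampling day, then 4 with small ones. The grouping did not hold on the earlier day, when Rpl13a differed by more than Rpl5 and Rpl39. The tract is in capitals, and each sequence runs 5′ to 3′ along the gene. The tracts shown begin between -20 (Rpl5) and 24 (Rpl37a) bases from the annotated start, negative values lying upstream of it.
Rpl11 (chr4:136053360-136053389, minus strand): ggccggaagtCTCCCTCTCTCTTCCTgttc
Rpl5 (chr5:107900498-107900527, plus strand): cctacagccaCTCTTTCTCacgtcgcttgc
Rps21 (chr2:180257367-180257396, plus strand): cgaggacccgCCCTCCTgcccaatagtgct
Rplp2 (chr7:141447637-141447666, plus strand): gcgtcagcgtCTTCCTTTCgccgccggacg
Rpl37a (chr1:72711274-72711303, plus strand): cgcattgcgtCCCTTCCTCTTCggacttgg
Rpl39 (chrX:37085197-37085226, minus strand): cctctagcgaCTTCTTCTaatcgcgttctt
Rpl15 (chr14:18270971-18271000, minus strand): tgggagaaagCCTTCTTCCTTTCCTCTggc
Rps15a (chr7:118116128-118116157, minus strand): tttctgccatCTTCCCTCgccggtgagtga
Rpl13a (chr7:45128724-45128753, minus strand): tgcgacaagaCCTCCTCCTTTCCCaggcgg
Rpl4 (chr9:64173360-64173389, plus strand): agtgacaagtCTTTCCTTTTCCTgtgggag
Windows were shown only for genes in which the search found a tract. They therefore cannot tell whether a tract goes with the size of the difference. The other 17 genes with an entry had no tract, Rpl10, Rpl22, Rpl24, Rpl27, Rpl7l1, Rplp0, Rps16, Rps28 and Rps4x among them, and no promoter entry was found for 25 genes, Rps29, Rpl36 and Rplp1 among them.

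The total count per library was 8928182 to 34848437 over the 23 libraries used (median 24035283). Control d14 replicate 4 stood apart and was left out. The study removed 1 Control d14 mouse and named poor RNA quality as the reason, while the RIN (RNA integrity number) of this library in the labels is 9.8, above those of Control d14 replicates 1 (8.6) and 5 (8.0), which were kept. In that library the ribosomal protein genes took 4.13% of the counts, against 0.751% to 1.49% in the other 23, and 81 of the 81 genes with a mean of at least 50 counts were higher there than in any other library. Defining markers of hypothalamic neurons were present in every group: the summed level of 10 neuropeptide and transcription factor genes ran from 628 to 1191 CPM (the usual scale of counts relative to the library's total) in Control d14, 588 to 812 in ExpOF d14, 504 to 798 in Control d14+3 and 448 to 643 in ExpOF d14+3. Of those 10 genes, 5 passed an unadjusted p of 0.05 in the lower and 1 in the higher direction on d14 in ExpOF mice, against 13.6% and 13.1% of all genes, and 3 and 0 on d14+3, against 4.2% and 2.91%.

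Levels between genes were compared per length, as CPM per kilobase of the length column in the count table. The plot of levels per kilobase orders the genes in Control d14+3. Rplp1, a protein of the stalk that recruits elongation factors, was highest at 591 ± 122 (SD, n = 6). Rps15, at the head of the small subunit, followed at 410 ± 79.7 (SD, n = 6). Rpl4, which reaches into the tunnel through which the new protein leaves, stood at 291 ± 25.9 (SD, n = 6) and Rpl8, near the catalytic centre, at 280 ± 45.0 (SD, n = 6), a gap smaller than either spread. Over all 23 libraries the same 4 genes led, with means of 504, 369, 287 and 269 CPM per kilobase.

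**Figure D1:**
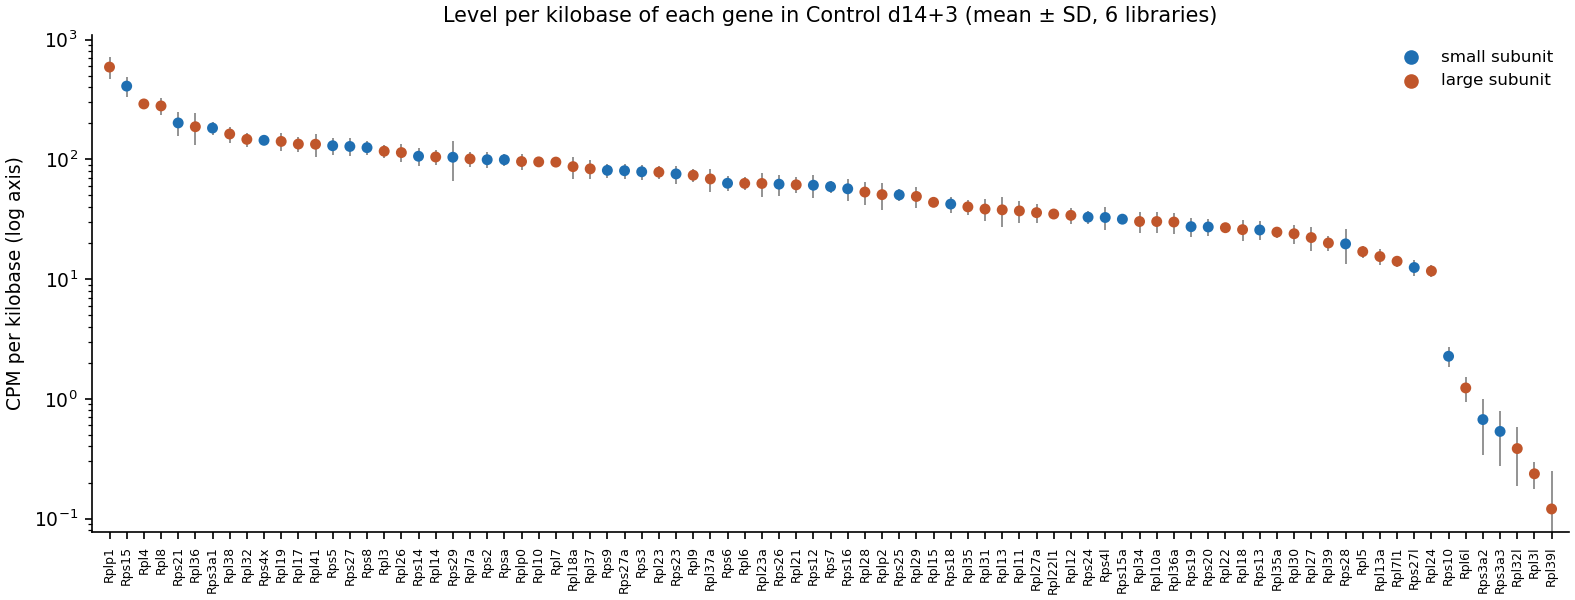
Level per kilobase (CPM per kilobase, log axis) of 85 genes with counts in Control d14+3, ordered by level, with points for the mean and bars for the SD of 6 libraries. Rplp1 led at 591 ± 122, and the 7 genes from Rps10 down lay apart from the rest at the low end.

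At the other end of the order were genes with few reads. The lowest tested means over 23 libraries were 2.08 CPM per kilobase for Rps10, 1.25 for Rpl6l, 0.65 for Rps3a2, 0.54 for Rps3a3 and 0.24 for Rpl3l. Rps10, a protein of the small subunit head, overlaps the readthrough gene RPS10-NUDT3 and the row Gm15420. These rows held a summed mean of 1.25 counts over 24 libraries, against 122 for Rps10 and 77.4 for its pseudogene rows. How reads lying in more than 1 gene were counted is not given, so its level is uncertain. Of the 89 genes, 50 overlap another annotated gene, 22 of them one on the opposite strand, and 61 have pseudogene rows in the same table (299 rows in all). Length also limits the order: the length column joins all exons of a gene and gives Rps15a 6270 bases, while the transcript with its longest coding sequence has 640. Levels per kilobase by the column and by that transcript had a Spearman rank correlation of 0.795 over 80 genes.

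The question put to these genes was whether their mRNA levels differed between overfed and control mice, at the end of overfeeding and in the recovery phase. The mean log2 CPM over the 81 genes with at least 50 counts on average, the log2 level of the whole set in a library, was 6.30, 7.11, 6.51, 6.90 and 7.11 in Control d14 replicates 1, 2, 3, 5 and 6. In ExpOF d14 it ran from 6.38 over a median of 6.47 to 6.62. Control replicates 2, 5 and 6 lay above every ExpOF d14 library, replicate 3 lay within their range and replicate 1 below it. In Control d14+3 the mean log2 CPM ran from 6.57 over 6.66 to 7.10, and in ExpOF d14+3 from 6.07 over 6.34 to 6.73. All but 1 of the ExpOF d14+3 libraries were below every Control d14+3 library, and replicate 5 of ExpOF lay within the Control range. In these bulk samples, fewer cells of a type and less RNA per cell cannot be told apart.

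**Figure D2:**
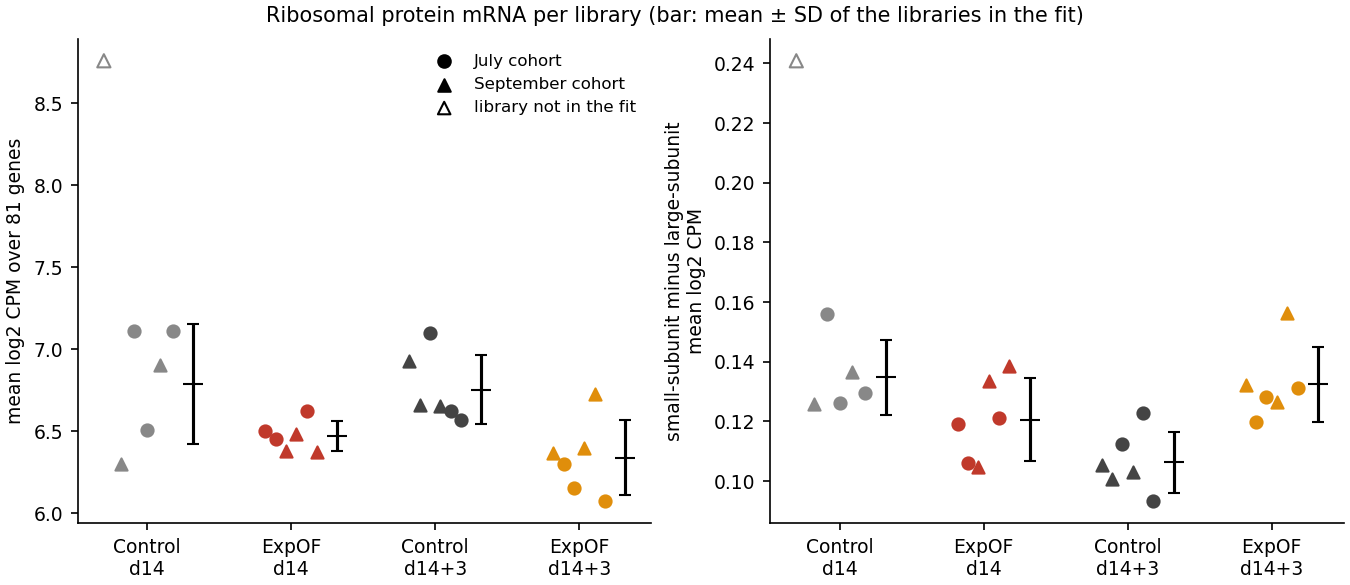
Mean log2 CPM of the 81 genes (left) and mean log2 CPM of the 33 small-subunit minus that of the 48 large-subunit genes (right) in each library, one point per mouse, with the mean and SD of the libraries used (circles, July cohort, and triangles, September cohort, with an open triangle for the left-out library at 8.76 and 0.241). Control d14 spread from 6.30 to 7.11 and ExpOF d14 from 6.38 to 6.62, while ExpOF d14+3 held the lowest libraries, down to 6.07.

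On d14 the ribosomal protein genes were lower in ExpOF than in Control mice throughout: the log2 fold change was under 0 in 85 of 85 tested genes, against 53.4% of all genes tested. Its median was -0.35, a level 21.5% lower, with quartiles of -0.41 and -0.31, while the median over all genes tested was -0.021. None of the 85 genes passed an adjusted p of 0.05 (edgeR quasi-likelihood F-test with Benjamini-Hochberg adjustment over 18992 genes), where 1 gene of the whole table did (0.00527%), and the smallest adjusted p among them was 0.135. At an unadjusted p of 0.05, 71 genes passed in the lower direction (29 small, 42 large; 83.5%) and 0 in the higher, against 13.6% and 13.1% of all genes tested. DESeq2 called 0 of the 81 genes to which it gave an adjusted p, with 0.676% of all genes called lower and 0.864% higher. Exact two-sided permutation tests of each gene's log2 CPM passed 0.05 in 15 of 85 genes (17.6%), all lower, against 11.0% of all genes in the lower and 13.3% in the higher direction, and in 0 of 85 genes were all ExpOF d14 libraries below all Control d14 libraries (0.958% of all genes, and 1.54% with all ExpOF libraries above).

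The Control d14 libraries set how many genes passed on d14. Without Control d14 replicate 1, the lowest of them, 69 of the 85 genes passed the adjusted threshold in edgeR, all lower, against 9.93% of all genes. Without replicate 2 the count at the unadjusted threshold was 27 (7.85% of all genes), and without replicate 6 it was 35 (9.77%). The median log2 fold change lay between -0.45 and -0.28 over all libraries left out in turn. With all 24 libraries, Control d14 replicate 4 included, the median was -0.90, and 81 genes passed unadjusted (20.9% of all genes). In the July cohort alone the median was -0.41 with 56 genes past the unadjusted threshold (9.32% of all genes), and in the September cohort alone, with 2 Control mice, -0.21 with 1 gene (2.72%).

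The genes with the lowest log2 fold changes on d14 encode small proteins of both subunits. Rps28, at the mRNA exit of the small subunit, had 21.3, 29.5, 41.0, 45.7 and 46.8 CPM in Control d14, and from 22.3 over 23.0 to 26.4 CPM in ExpOF d14. The Control libraries spread widely, and all but 1 were above the whole ExpOF group. The log2 fold change was -0.63 ± 0.22 (SE), with an adjusted p of 0.135 in edgeR and of 0.0216 to 0.872 over the alternatives, and the exact permutation p was 0.0216. Rps28 overlaps Kank3 on the opposite strand, and whether the counting used strand is not given in the sources used here. Rps29, a zinc-binding protein of the small subunit head, had 26.8, 39.5, 49.9, 61.1 and 123 CPM in Control d14, and from 22.6 over 37.3 to 77.1 CPM in ExpOF d14. Its highest value was in Control d14 replicate 6, and the groups overlapped. On the log2 scale the difference was -0.58 ± 0.36 (SE, exact permutation p = 0.314), or -0.15 without that library.

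Rps21, a small-subunit protein on the solvent side, had 111, 130, 185, 223 and 227 CPM in Control d14, and from 114 over 122 to 135 CPM in ExpOF d14. Of the Control libraries, 3 stood above every ExpOF library. The log2 fold change was -0.52 ± 0.17 (SE, adjusted p = 0.135 in edgeR, 0.0207 to 0.872 over the alternatives, exact permutation p = 0.0476). Rpl36, a large-subunit protein, had 44.6, 53.6, 74.9, 107 and 108 CPM in Control d14, and from 46.6 over 53.4 to 63.4 CPM in ExpOF d14, with a log2 fold change of -0.54 ± 0.22 (SE, exact permutation p = 0.119). Rplp2, a stalk protein, differed by -0.48 ± 0.20 (SE, exact permutation p = 0.128) on the log2 scale.

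On d14+3 the log2 fold change of ExpOF against Control mice was under 0 in 83 of 85 genes, against 47.9% of all genes tested. Its median was -0.40, a level 24.5% lower, with quartiles of -0.53 and -0.24, while the median over all genes was 0.0070. None of the 85 genes passed the adjusted threshold in edgeR, nor did any gene of the table (0.0%), and the smallest adjusted p was 0.206. At an unadjusted p of 0.05, 65 genes passed in the lower direction (24 small, 41 large; 76.5%) and 0 in the higher, against 4.2% and 2.91% of all genes. The exact permutation test passed 0.05 in 63 of 85 genes (74.1%), all lower, against 3.7% of all genes in the lower and 2.55% in the higher direction. DESeq2 called 16 of the genes, all lower (4 small, 12 large), against 0.228% of all genes called lower and 0.0175% higher. In 9 genes (Rpl5, Rpl17, Rpl22l1, Rpl24, Rpl30, Rpl35a, Rps15a, Rps23 and Rps29), 10.6% of those tested, every ExpOF d14+3 library lay below every Control d14+3 library, against 0.3% of all genes. The opposite order was seen in 0 of the 85 and in 0.121% of all genes.

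These counts depended less than those of d14 on which of the 23 libraries was left out. Between 49 and 75 genes passed the unadjusted threshold when libraries were left out in turn, and the median lay between -0.49 and -0.33. The shares of all genes in those fits are not given here. With the RIN as a covariate, 4 genes passed the adjusted threshold, against 0.111% of all genes: Rpl5, Rpl11, Rpl27 and Rps16. In the July cohort alone the median was -0.59 with 70 genes past the unadjusted threshold (4.87% of all genes), and in the September cohort alone -0.23 with 22 genes (1.43%). They did depend on Control d14 replicate 4, a library of neither d14+3 group. With it in the fit of all 24 libraries, 14 genes passed the unadjusted threshold (1.56%), down from 65. With the replicate number as a block, 64 genes passed it (3.62%), and 56 did so on d14 (10.2%).

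RNA quality and markers of neighbouring tissue varied among the libraries as well. RNA was extracted in 2 rounds. Control d14+3 replicates 1, 2 and 3, of round 1, had a RIN of 9.5, 9.3 and 9.9. Replicates 4, 5 and 6 of that group, of round 2, had 7.9, 7.2 and 7.9. The RIN ran from 8.0 to 10.0 in Control d14, 9.6 to 10.0 in ExpOF d14, 7.2 to 9.9 in Control d14+3 and 8.8 to 10.0 in ExpOF d14+3. Summed leptomeningeal markers (5 genes, of which 3 passed unadjusted in the lower direction on d14 and 0 on d14+3) ran from 310 to 619 CPM, 243 to 368, 271 to 457 and 292 to 389 in the same order. Of the choroid plexus markers, 4 of 5 were tested, and 3 passed unadjusted in the lower direction on d14 and 1 in the higher direction on d14+3. Their summed level ran from 34.6 to 3030 CPM in Control d14, 33.3 to 39.2 in ExpOF d14, 36.4 to 60.3 in Control d14+3 and 33.5 to 1291 in ExpOF d14+3, where the highest values came from Control d14 replicate 5 and ExpOF d14+3 replicate 4. Of the other lists, 2 of 4 oligodendrocyte, 1 of 3 endothelial and 1 of 2 pituitary markers passed in the lower direction on d14, and 1 of 3 endothelial and 1 of 5 blood markers on d14+3. A single marker each of neurons, astrocytes and microglia passed in the higher direction on d14. Of all genes tested, 13.6% passed unadjusted in the lower and 13.1% in the higher direction on d14, and 4.2% and 2.91% on d14+3. No leptomeningeal or choroid plexus marker was at 0 in every library of a group. Their part in the lower ribosomal protein levels of ExpOF mice was not tested.

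**Figure D3:**
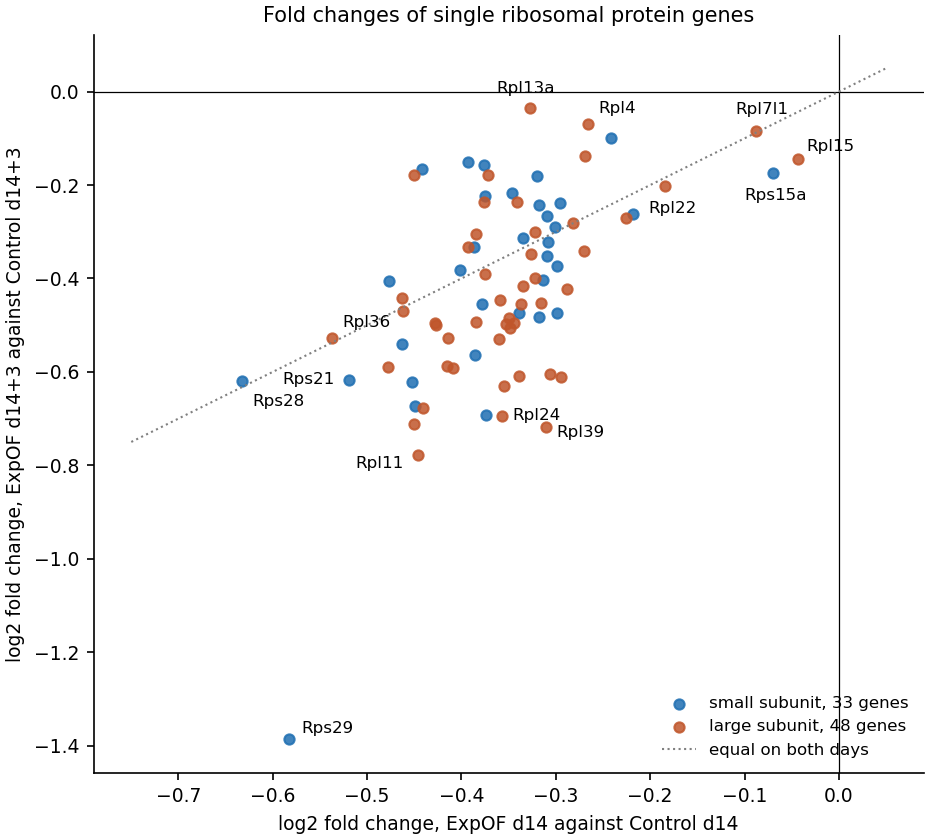
Log2 fold change of ExpOF against Control mice on d14 (x axis) and on d14+3 (y axis) for 81 genes, one point per gene, coloured by subunit, with a dotted line where both are equal. All points lie below 0 on both axes, Rps29 stands apart at -0.58 and -1.39, and Rps15a, Rpl15 and Rpl7l1 lie nearest to 0.

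The 5S particle joins Rpl5, Rpl11 and the 5S rRNA, and the free proteins are known to bind Mdm2 and stabilise p53 when ribosome assembly is disturbed. Rpl5 (chr5:107900502-107909005, mm10, plus strand) had from 54.9 over 65.6 to 78.8 CPM in Control d14+3 and from 36.7 over 41.6 to 53.8 CPM in ExpOF d14+3. The groups did not overlap. The log2 fold change of Rpl5 was -0.61 ± 0.13 (SE), with an adjusted p of 0.218 in edgeR, 0.0103 to 1 over the alternatives, and an exact permutation p of 0.00216, the smallest that 6 against 6 mice allow. Rpl11 (chr4:136028265-136053393, minus strand) had from 74.4 over 97.2 to 132 CPM in Control and from 45.8 over 56.5 to 77.3 CPM in ExpOF mice on d14+3. Only the top of the ExpOF range reached the lowest Control library. The log2 fold change was -0.78 ± 0.18 (SE, adjusted p = 0.227 in edgeR, 0.0155 to 1 over the alternatives, exact permutation p = 0.00433), with -0.98 in July and -0.62 in September. On d14 Rpl5 differed by -0.29 ± 0.13 (SE, exact permutation p = 0.152) and Rpl11 by -0.45 ± 0.19 (SE, exact permutation p = 0.136) on the log2 scale.

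Rps29 (chr12:69157722-69159186, minus strand) had the lowest log2 fold change on d14+3. Its levels ran from 45.5 over 67.9 to 122 CPM in Control d14+3 and from 18.2 over 24.0 to 44.1 CPM in ExpOF d14+3. The groups did not overlap, although the gap between them was narrow and 1 Control library stood well above the others. On the log2 scale the difference was -1.39 ± 0.35 (SE, adjusted p = 0.275 in edgeR, 0.0361 to 1 over the alternatives, exact permutation p = 0.00216), with -1.91 in July and -0.98 in September. Rps28 differed by -0.62 ± 0.21 (SE, exact permutation p = 0.0368) on d14+3, with -1.13 in July and -0.19 in September. Rps21 had from 130 over 147 to 221 CPM in Control d14+3 and from 81.0 over 104 to 150 CPM in ExpOF d14+3, a log2 fold change of -0.62 ± 0.17 (SE, exact permutation p = 0.0108).

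Rpl24, which forms a bridge between the subunits, had from 10.7 over 11.9 to 14.1 CPM in Control d14+3 and from 4.60 over 7.63 to 10.3 CPM in ExpOF d14+3. Every ExpOF library was below every Control library. The log2 fold change was -0.69 ± 0.14 (SE, adjusted p = 0.206 in edgeR, 0.00871 to 1 over the alternatives, exact permutation p = 0.00216), with -1.07 in July and -0.37 in September. Rpl24 overlaps Gm28037, a row without counts on the same strand. Rps23, a protein of the decoding centre, differed by -0.69 ± 0.15 (SE), Rpl35a by -0.63 ± 0.14 (SE) and Rpl30 by -0.61 ± 0.15 (SE) on the log2 scale.

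Rpl39, which lines the exit tunnel, had from 21.3 over 29.8 to 32.5 CPM in Control d14+3 and from 10.3 over 17.4 to 23.3 CPM in ExpOF d14+3, and the ranges overlapped only at their ends. Its log2 fold change was -0.72 ± 0.18 (SE, adjusted p = 0.256 in edgeR, 0.0341 to 1 over the alternatives, exact permutation p = 0.00649), against -0.31 ± 0.19 (SE, exact permutation p = 0.26) on d14. Rpl37a, a zinc-binding protein of the large subunit, had from 79.1 over 89.4 to 135 CPM in Control d14+3 and from 39.7 over 60.6 to 85.9 CPM in ExpOF d14+3. The log2 fold change was -0.71 ± 0.18 (SE, exact permutation p = 0.00866).

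The stalk of the large subunit is built from Rplp0, Rplp1 and Rplp2, which bring elongation factors to the ribosome. Rplp0 had 121, 144, 179, 190 and 195 CPM in Control d14 and from 120 over 132 to 138 CPM in ExpOF d14, with 4 of the 5 Control libraries above the ExpOF range. Its log2 fold change was -0.34 ± 0.12 (SE, adjusted p = 0.135 in edgeR, 0.0201 to 0.872 over the alternatives, exact permutation p = 0.0455) on d14 and -0.24 ± 0.11 (SE, exact permutation p = 0.0779) on d14+3. Rplp1 had 194, 233, 307, 366 and 396 CPM in Control d14, from 195 over 215 to 278 CPM in ExpOF d14, from 247 over 265 to 400 CPM in Control d14+3 and from 155 over 191 to 283 CPM in ExpOF d14+3. The groups of each day overlapped. The log2 fold changes of Rplp1 were -0.42 ± 0.17 (SE, exact permutation p = 0.0974) and -0.59 ± 0.16 (SE, exact permutation p = 0.0108).

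Other genes with known roles of their own were lower by amounts near the median of the set. Rps6, the substrate of the S6 kinases, had from 85.9 over 94.3 to 119 CPM in Control d14+3 and from 58.8 over 69.5 to 92.6 CPM in ExpOF d14+3, with log2 fold changes of -0.32 ± 0.13 (SE, exact permutation p = 0.132) on d14 and -0.48 ± 0.13 (SE, exact permutation p = 0.00866) on d14+3. Rps27a, made as a fusion with ubiquitin, gave -0.38 ± 0.15 (SE, exact permutation p = 0.117) and -0.45 ± 0.14 (SE, exact permutation p = 0.0108). Rpsa, also known as the laminin receptor, gave -0.31 ± 0.13 (SE, exact permutation p = 0.123) and -0.35 ± 0.12 (SE, exact permutation p = 0.0173).

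**Figure D4:**
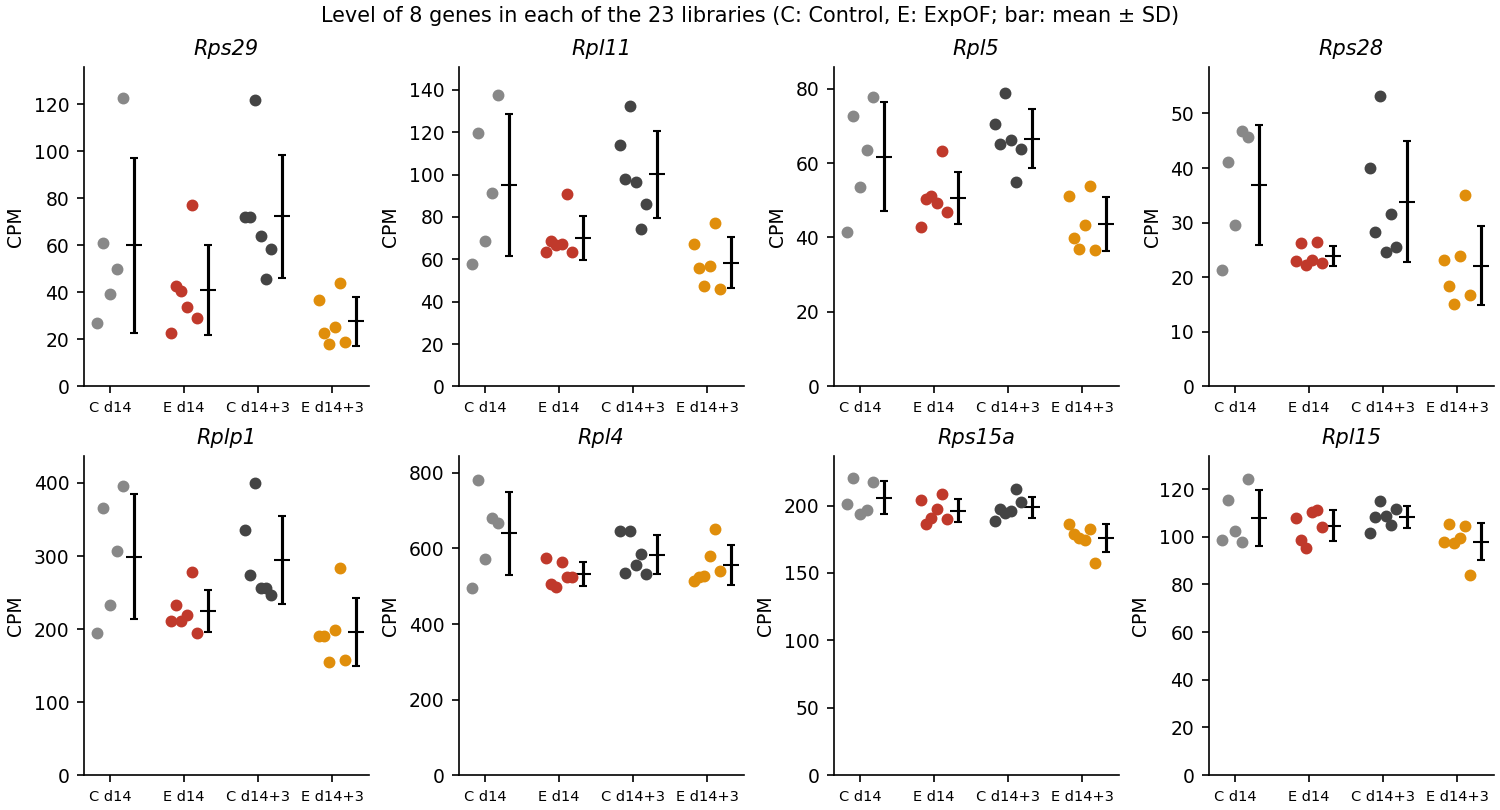
Level (CPM) of 8 genes in each of the 23 libraries, one point per mouse, with the mean and SD of each group (C, Control; E, ExpOF). Rps29, Rpl5 and Rps15a had no overlap between the d14+3 groups, Rpl11 nearly none, and Rpl4 and Rpl15 had overlapping ranges on both days.

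A few genes had small differences and narrow spreads. Rps15a (chr7:118104372-118116188, minus strand), a small-subunit protein, had 194, 196, 201, 217 and 220 CPM in Control d14 and from 187 over 194 to 209 CPM in ExpOF d14, and these ranges overlapped. It had from 189 over 197 to 212 CPM in Control d14+3 and from 157 over 177 to 187 CPM in ExpOF d14+3, with no overlap. The log2 fold changes were -0.07 ± 0.05 (SE, exact permutation p = 0.158) and -0.17 ± 0.05 (SE, exact permutation p = 0.00216). Rpl15 had 97.7, 98.5, 103, 116 and 124 CPM in Control d14, from 95.4 over 106 to 111 CPM in ExpOF d14, from 102 over 108 to 115 CPM in Control d14+3 and from 83.8 over 98.6 to 105 CPM in ExpOF d14+3. The log2 fold changes of Rpl15 were -0.04 ± 0.07 (SE, exact permutation p = 0.613) and -0.14 ± 0.06 (SE, exact permutation p = 0.0108). Rpl15 overlaps Nkiras1 on the opposite strand.

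Rpl4 and Rpl13a had lower levels on d14 and little difference on d14+3. Rpl4 had 494, 573, 668, 681 and 782 CPM in Control d14 and from 499 over 524 to 574 CPM in ExpOF d14. The Control median was above every ExpOF library. On the log2 scale the difference was -0.27 ± 0.09 (SE, adjusted p = 0.135 in edgeR, 0.0200 to 0.872 over the alternatives, exact permutation p = 0.0584) on d14 and -0.07 ± 0.08 (SE, exact permutation p = 0.353) on d14+3. Rpl13a, which also has a role outside the ribosome in silencing inflammatory mRNAs, had 28.9, 33.8, 38.6, 44.6 and 45.8 CPM in Control d14 and from 28.2 over 30.3 to 33.7 CPM in ExpOF d14. Its log2 fold changes were -0.33 ± 0.11 (SE, exact permutation p = 0.0368) and -0.03 ± 0.10 (SE, exact permutation p = 0.835). The interaction of diet and day for Rpl13a was 0.29 ± 0.15 (SE) with an unadjusted p of 0.0633 and an adjusted p of 0.903 in edgeR.

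The naming rule also takes in paralogs that share a symbol root with a canonical gene. Rpl22l1, a paralog of the RNA-binding protein Rpl22, had 60.0, 66.2, 71.5, 92.7 and 93.0 CPM in Control d14, from 57.2 over 62.8 to 67.1 CPM in ExpOF d14, from 62.1 over 68.3 to 80.9 CPM in Control d14+3 and from 39.2 over 54.0 to 56.1 CPM in ExpOF d14+3. The d14+3 groups did not overlap. The log2 fold changes were -0.29 ± 0.10 (SE, exact permutation p = 0.0541) and -0.42 ± 0.10 (SE, adjusted p = 0.227 in edgeR, 0.024 to 1 over the alternatives, exact permutation p = 0.00216), while Rpl22 gave -0.18 ± 0.09 (SE) and -0.20 ± 0.09 (SE). Rpl7l1 gave -0.09 ± 0.07 (SE) and -0.08 ± 0.07 (SE), and Rpl7 -0.27 and -0.14. Rps27 gave -0.46 and -0.54, and Rps27l, a paralog induced by p53, -0.38 ± 0.12 (SE, exact permutation p = 0.0238) and -0.16 ± 0.11 (SE, exact permutation p = 0.219). No difference between a gene and its paralog was tested.

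Rps4x, on the X chromosome, gave -0.30 (exact permutation p = 0.0931) and -0.24 (exact permutation p = 0.0346), and its retained copy Rps4l, at 21.6 to 45.7 CPM, gave -0.39 (exact permutation p = 0.0368) and -0.15 (exact permutation p = 0.4). Rps4l lies opposite Tmtc1, and near-identical copies could share reads. Rpl3, of the catalytic centre, gave -0.32 (exact permutation p = 0.0606) and -0.40 (exact permutation p = 0.0108). Rpl3l, the form known from muscle, stood at 0.167 to 0.77 CPM in these libraries, with -0.54 ± 0.31 (SE) and 0.25 ± 0.28 (SE). Rpl10, which completes the large subunit, gave -0.23 and -0.27, while Rpl10l and Rpl39l, the forms known from testis, had 0 counts and 0 to 0.257 CPM. Only Rpl3l and Rpl6l, at 0.25 and 0.03, had a log2 fold change above 0 on d14+3.

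Of the 85 genes, 57 passed the unadjusted threshold in the lower direction on both days (67.1%), against 1.8% of all genes. They were 80.3% of the 71 on d14 and 87.7% of the 65 on d14+3. The comparisons share no mouse, but both came from 1 model with the spread between mice estimated over all 23 libraries. The genes also followed one another closely (median Pearson's r with the mean of the others 0.955), so the 57 are not separate results. The 14 that passed only on d14 include Rpl4, Rpl13a and Rps27l, and the 8 that passed only on d14+3 include Rpl15, Rpl22, Rpl39, Rps15a and Rps29. The 6 that passed on neither day were Rpl3l, Rpl6l, Rpl7l1, Rps10, Rps3a2 and Rps3a3. The difference between days itself was tested as the interaction. It passed the adjusted threshold in 0 of 85 genes (0.0% of all genes), with a smallest adjusted p of 0.903 and a median of -0.071, and at the unadjusted threshold in 0 genes in either direction, against 1.64% and 2.78% of all genes.

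Small- and large-subunit genes were compared by their medians, as a description. On d14 the median log2 fold change was -0.35 for either subunit, and the medians differed by 0.0053. On d14+3 it was -0.35 for the small and -0.45 for the large subunit, a difference of 0.0975. Within a library, the mean log2 CPM of the small- minus that of the large-subunit genes was a narrow quantity. It ran from 0.126 to 0.156 in Control d14, 0.105 to 0.139 in ExpOF d14, 0.0933 to 0.123 in Control d14+3 and 0.120 to 0.156 in ExpOF d14+3. The groups overlapped on d14, where the ExpOF mean (0.121) was below the Control mean (0.135). They nearly separated on d14+3, with the ExpOF libraries at the higher values (mean 0.132). Control d14+3 had the lowest group mean (0.106). The SD within groups was 0.0123 for the small- minus large-subunit difference and 0.236 for the mean over all genes. The subunits thus varied together from mouse to mouse. Small-subunit genes took 42.7% to 43.6% of the counts of the set in the 23 libraries and 44.8% in the left-out library.

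Coding length was not used by the rule, and genes with longer coding sequences had smaller median differences on both days. On d14+3 the median log2 fold change was -0.51 in the 28 genes with the shortest coding sequences (138 to 405 bases), -0.45 in the 26 of middle length (408 to 582 bases) and -0.28 in the 26 with the longest (588 to 1257 bases), and 26, 22 and 17 genes passed the unadjusted threshold in the lower direction (4.2% of all genes). On d14 the medians were -0.38, -0.35 and -0.32, and the counts were 21, 25 and 24, fewest among the shortest genes, unlike on d14+3 (13.6% of all genes). Across the 80 genes, the Spearman rank correlation of coding length with the log2 fold change was 0.425 on d14 and 0.504 on d14+3. By the length column of the table it was 0.432 and 0.263, where all genes tested gave 0.412 and 0.249, so a relation with length was not limited to the ribosomal protein genes. Genes are not independent replicates, and all share the same libraries. With each library's trend with length removed, 32 genes passed the unadjusted threshold on d14 (9.7% of all genes) and 63 on d14+3 (4.02%).

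**Figure D5:**
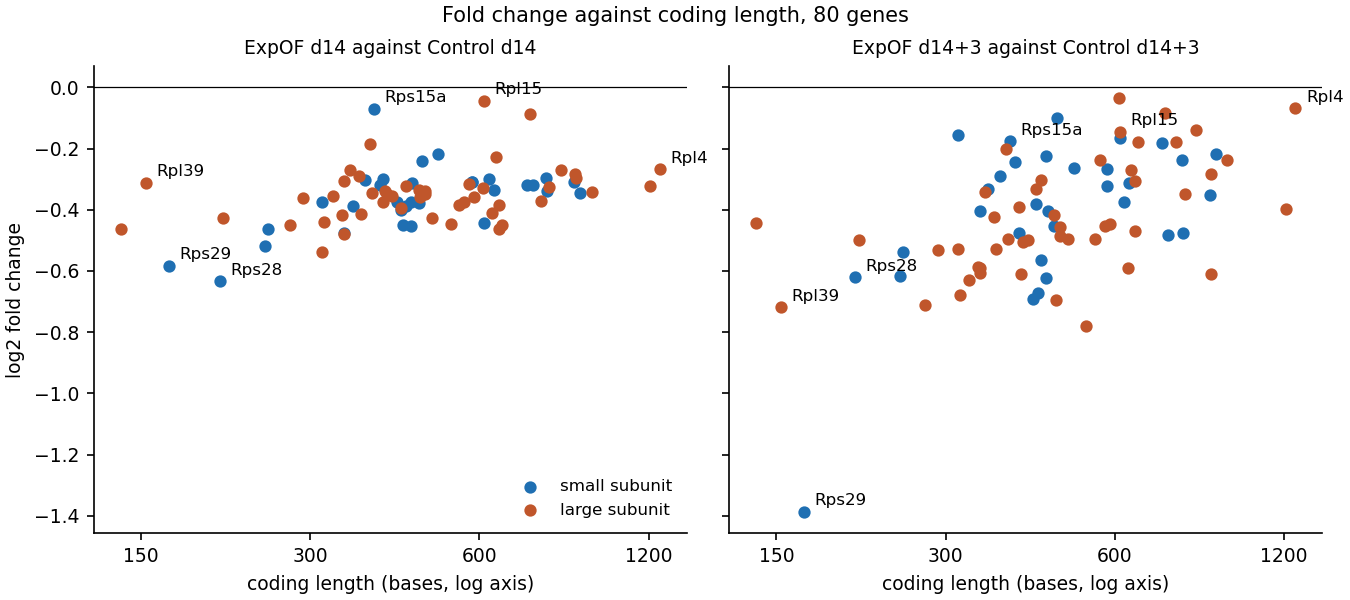
Log2 fold change of ExpOF against Control mice against the coding length (bases, log axis) of 80 genes, on d14 and on d14+3, one point per gene, coloured by subunit. The 28 shortest genes lay at a median of -0.51 and the 26 longest at -0.28 on d14+3, and at -0.38 and -0.32 on d14.

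Other features were related to the log2 fold change to different degrees. The mean CPM gave a Spearman rank correlation of 0.19 on d14 and 0.437 on d14+3 over 81 genes, transcript length 0.352 and 0.361 over 80 genes, and the length of the longest coding transcript 0.467 and 0.476. Genes with a pyrimidine tract near the annotated start had a median log2 fold change of -0.35 on d14 (45 genes) and those without -0.34 (15 genes). On d14+3 the medians were -0.40 and -0.45. The 30 genes whose coordinates overlap snoRNA genes on either strand (59 in all) had medians of -0.34 and -0.41, and the other 51 had -0.36 and -0.42. The GC content gave rank correlations with the log2 fold change of -0.273 on d14 and 0.0629 on d14+3.

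The day comparisons within a diet gave small values. In ExpOF mice the median log2 fold change of d14+3 against d14 was -0.10, and 4 genes passed the unadjusted threshold in the lower direction, against 2.4% of all genes, and 0 in the higher, against 5.39%. These were Rps15a at -0.16, Rpl22l1 at -0.28, Rpl24 at -0.33 and the pseudogene Rps3a3 at -0.85. None passed the adjusted threshold (0.0% of all genes). The median was -0.32 in the July cohort, with 32 genes (1.73% of all genes), and 0.11 in the September cohort, with 0 genes (1.02%). In Control mice the median was -0.068, and Rpl13a alone passed unadjusted, at -0.23 ± 0.11 (SE, adjusted p = 0.364 in edgeR), against 5.93% of all genes in the lower direction and 0 genes against 6.81% in the higher. None of the 85 passed the adjusted threshold there, while 218 of all genes did (1.15%).

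The genes also differed in how much they varied among mice of 1 group. The coefficient of variation over the 81 genes had a median of 25.1% in Control d14, 8.05% in ExpOF d14, 15.4% in Control d14+3 and 17.7% in ExpOF d14+3. Rps29 had the highest value in every group, up to 62.1%. Rps15a had the lowest in 3 groups, down to 4.03%, and Rpl7l1, at 3.08%, in ExpOF d14. Each gene followed the mean of the others closely: Pearson's r over the 23 libraries had a median of 0.955, exceeded 0.9 in 60 of 81 genes and was lowest for Rps15a at 0.646. Outside the set, the genes whose log2 CPM followed the mean of the ribosomal protein genes best were Cox6c (0.984), Sod1 (0.981), Fau (0.981), Ndufa5 (0.975) and Nop10 (0.974). Fau encodes a ribosomal protein fused to a ubiquitin-like protein, and Cox6c and Ndufa5 encode subunits of the respiratory chain. All these correlations share libraries and depth.

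Of ribosomal protein genes outside the naming rule, Fau, Rack1, Rpl36al and Rps27rt were tested. At the unadjusted threshold 3 of them passed in the lower direction on d14 and 1 on d14+3, where the shares of all genes were 13.6% and 4.2%. Rack1, a scaffold on the small subunit, gave -0.33 ± 0.10 (SE) and -0.10 ± 0.09 (SE), Fau gave -0.44 ± 0.18 (SE) and -0.55 ± 0.17 (SE), and Rps27rt gave -0.77 on d14 and 0.07 on d14+3. Among 10 elongation factors and translationally controlled genes, whose mRNAs mostly carry TOP tracts as well, 7 passed in the lower direction on d14 and 4 on d14+3, with 0 in the higher, against the same shares of all genes. Tpt1 gave -0.31 and -0.43, Eef1g -0.26 and -0.24, Naca -0.27 and -0.21 and Btf3 -0.19 and -0.24. Eef1a1, which carries the aminoacyl-tRNA to the ribosome, gave -0.18 and 0.01.

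For the following lists the shares of all genes at the unadjusted threshold were 13.6% lower and 13.1% higher on d14, and 4.2% and 2.91% on d14+3. Among 33 initiation factors, 13 passed in the lower and 4 in the higher direction on d14, and 2 and 0 on d14+3, with medians of -0.075 and -0.068. Eif3f gave -0.38 and Eif4g2 0.19 on d14. Among 38 genes of ribosome biogenesis, 7 passed in the lower and 3 in the higher direction on d14, and 5 and 2 on d14+3, with medians of -0.079 and -0.036. Nhp2, of the H/ACA ribonucleoprotein, gave -0.56 and Mdn1, an ATPase of large-subunit assembly, 0.40 on d14. Among 13 regulators of TOP mRNAs and mTORC1, 1 passed in the lower and 4 in the higher direction on d14, and none on d14+3, with medians of 0.030 and 0.025. Larp4 gave 0.32, Rps6kb1, an S6 kinase, 0.29 and Mtor 0.15 on d14. No gene of these 5 lists passed the adjusted threshold in edgeR on either day.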

How the data were processed

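The authors sequenced poly-A selected, stranded libraries of 24 hypothalami as paired ends, aligned them with STAR to the mm10 genome, and summed the reads over GENCODE vM22 genes in featureCounts 1.6.4. The authors deposited raw counts with the position and length of each gene. The strand setting and the treatment of reads with several matches are not given in the sources used here. Symbols came from GENCODE vM21. Coding lengths were taken from the same annotation, and start windows from RefSeq (GRCm38.p6).

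Counts were scaled with TMM factors and tested in R 4.3.3 with edgeR 4.0.16 (filterByExpr at its minimum count of 10 and total of 15, one robust quasi-likelihood model with 4 groups over 23 libraries, SE as the log2 fold change over the root of F), with Benjamini-Hochberg adjustment over all 18992 genes tested and a threshold of 0.05. CPM per library used TMM factors, and log2 CPM a prior count of 2. Two-sided exact permutation tests compared single genes within a day. The removed Control d14 mouse was matched to replicate 4 through the authors' mean count of each gene over all groups together. The edgeR p-values weigh a difference against 1 spread between mice per gene, estimated over the 4 groups. The permutation tests use only the mice of the 2 groups compared. On d14 these spreads were unequal: the SD of the set's mean log2 CPM was 0.366 in Control and 0.0909 in ExpOF mice.

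Genes described one by one are the 5 with the lowest and the 5 with the highest log2 fold change on each day among those with a mean of at least 50 counts, and, without that limit, the 3 with the smallest p in each other comparison, the 5 highest and lowest per kilobase, the paralog pairs, and the stalk, 5S, Rps6, Rps27a and Rpsa genes. Those described because their groups did not overlap (Rps23, Rpl35a, Rpl30) were added after their values were seen. The members, the lists and the alternatives were chosen with earlier results of these data known. DESeq2 1.42.0, other scalings, filters, covariates, cohorts and left-out libraries were tried as alternatives. The fits were tested on simulated counts. The results of some genes are not reported here.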

Additional observations from a re-analysis of the deposited data

Results flagged for a closer look

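The 36 tested genes described one by one, the set's mean and the small- minus large-subunit difference gave 152 groups of 5 or 6 libraries. Each was examined for 1 library far from the others, and 14 had one. For a single group chance gives about 1 in 20. The groups reuse the same mice and the genes follow one another, so the 14 cannot be judged against that rate. ExpOF d14 replicate 5 was far above its group in Rpl11 (90.8 CPM), Rpl37a (88.9 CPM), Rpl39 (29.8 CPM) and Rps29 (77.1 CPM), and far below it in Rpl6l (0.451 CPM). ExpOF d14 replicate 2 was apart in Rps3a3 (0.833 CPM). Control d14+3 replicate 3 was far above its group in Rps29 (122 CPM) and Rps4l (43.8 CPM). ExpOF d14+3 replicate 5 was far above its group in Rpl8 (456 CPM), Rplp0 (175 CPM), Rplp1 (283 CPM) and the small- minus large-subunit difference of mean log2 CPM (0.156). ExpOF d14+3 replicate 6 was far below its group in Rpl15 (83.8 CPM) and Rpl22l1 (39.2 CPM). These libraries stayed in the comparisons, and leaving each out did not bring any of the 85 genes past the adjusted threshold in edgeR.

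The left-out library, Control d14 replicate 4, had a summed level of 47118 CPM over the ribosomal protein genes, above every other library. Its fold over the Control d14 median ran from 1.51 (Rpl15) to 8.66 (Rps29), with a median of 3.79, or 3.99 over small- and 3.51 over large-subunit genes. The summed markers of choroid plexus (4577 CPM) and leptomeninges (1445 CPM) were also highest there. So were those of hypothalamic neuropeptide and transcription factor genes (2551 CPM), blood (710 CPM) and endothelium (264 CPM). The general neuronal markers (1836 CPM) and the astrocyte markers (801 CPM) were lowest there. The part of all these markers in its ribosomal protein level was not tested.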

How the results depend on the processing

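The direction of the median held under every alternative run, from -0.90 to -0.21 on d14 and from -0.59 to -0.23 on d14+3. The -0.90 came with all 24 libraries. Of the values that answer a comparison, 271 stayed near the reported one and 26 moved. Of the values of single genes, 1767 kept direction and side of the threshold, 33 passed it anew (24 of them without Control d14 replicate 1, 7 with DESeq2 and 2 with RIN as a covariate) and 25 reversed. The causes were not tested.

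Genes past the adjusted threshold on d14 numbered 0 to 69 with libraries left out in turn (69 without Control d14 replicate 1), and 0 in the other alternatives. On d14+3 they numbered 16 with DESeq2, 4 with RIN and 0 elsewhere. Genes lower at the unadjusted threshold on d14 (71) numbered 1 in September, 32 with the length trend removed, and 27 to 77 with libraries left out (27 without Control d14 replicate 2, 35 without replicate 6). On d14+3 (65) they numbered 22 in September, 14 with all 24 libraries and 49 to 75 with libraries left out. Shares of all genes with 1 library left out are given above only for Control d14 replicates 1, 2 and 6. The small- minus large-subunit median on d14 (0.0053) was -0.023 in July, -0.049 with all 24 libraries, -0.017 with the length trend removed, -0.014 with the replicate block and -0.018 to 0.025 with libraries left out. On d14+3 (0.0975) it was 0.127 in July, 0.0746 in September, 0.121 with RIN, 0.111 with only the 2 groups in the fit and 0.0738 to 0.117 with libraries left out. Genes described one by one with an exact permutation p under 0.05 on d14 numbered 18 with all 24 libraries and 8 with 23. Some of these genes were chosen by their fold change or p. With 23 libraries, 11.0% of all genes passed this test in the lower and 13.3% in the higher direction. The share with 24 libraries is not given here.

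The log2 fold changes that reversed were near 0 or of low genes. In September alone they were 0.070 for Rpl15, 0.15 for Rpl6l, 0.014 for Rpl7l1 and 0.23 for Rps10 on d14, and 0.00014 for Rpl4, 0.012 for Rps10, 0.16 for Rps3a2, 0.17 for Rps3a3 and 0.10 for Rps4l on d14+3. In July alone they were 0.10 for Rps3a3 on d14, and -0.30 for Rpl3l and -0.38 for Rpl6l on d14+3. With the length trend removed they were 0.041 for Rpl15 and 0.023 for Rps3a3 on d14, and 0.0073 for Rpl13a on d14+3. With libraries left out in turn, Rpl15 (-0.077 to 0.0070) and Rps3a3 (-0.34 to 0.13) reversed on d14, and Rpl13a (-0.087 to 0.025), Rpl6l (-0.089 to 0.14) and Rps3a2 (-0.22 to 0.13) on d14+3.

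Mice that share a replicate number did not deviate together: the correlation was -0.153 to -0.0236 over 5 numbers on d14 and -0.211 to 0.223 over 6 on d14+3, with 2 of the latter above 0.1. With the number as a replicate block, 56 and 64 genes were lower at the unadjusted threshold, with medians of -0.33 and -0.41 and 0 past the adjusted one. Coding length from a protein table was not run. GENCODE coding length, transcript length and GC content, and protein-coding genes only (medians of -0.35 and -0.42), were chosen after the data were seen. Counting error limits Rpl3l, Rpl6l, Rps3a2 and Rps3a3 most.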

Other observations

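The genes that varied most among mice of 1 group were also those with the lowest fold changes. Over 81 genes, the SD of log2 CPM within groups had a Spearman rank correlation of -0.652 with the log2 fold change on d14 and -0.745 on d14+3, and one of 0.684 with the excess of the left-out library over Control d14. Over 3 sets of 27 genes ordered by that SD, from least to most, the median log2 fold change on d14+3 was -0.24, -0.45 and -0.59, and the median fold of the left-out library was 2.50, 3.93 and 4.59. Coding length had a rank correlation of -0.546 with the same SD over 80 genes, the shorter genes varying more. These values come from the same libraries and genes, so they describe 1 pattern seen in several measures, and no explanation of it was tested.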
